A study of Mus musculus with 12 samples.

Results

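The genes examined were 10 genes of the MHC class I pathway, taken by name out of the 21834 protein-coding genes of the deposited count table. They were the class I heavy chains H2-K1, H2-D1 and H2-T23, the light chain B2m, the peptide transporter subunits Tap1 and Tap2, the loading bridge Tapbp, the immunoproteasome subunits Psmb8 and Psmb9, and the class I transactivator Nlrc5. All 10 names were found once each in the table. All 10 also passed the filter on low counts, at least 0.5 CPM (counts scaled to a fixed total per library) in at least 3 libraries, which kept 11626 genes. The cells were BV2, an immortalized mouse microglial line, carrying a lentiviral pLKO.1 vector whose hairpin was a control (shCtrl) or targeted Anxa2 (shAnxa2), and selected with puromycin as stable lines. All 4 groups thus carried a vector and had been through selection, and the sources do not say whether a line was 1 clone or a pool. Of each line, some cells stayed untreated (CTRL) and others went through OGD/R, which is oxygen-glucose deprivation in glucose-free medium under low oxygen for 4 h followed by reoxygenation in normal medium for 12 h per the labels. Each of these 4 groups had 3 libraries. The study's methods give a longer reoxygenation for these cells.

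MHC class I molecules show peptides from inside the cell to CD8 T cells. Proteins are cut by the proteasome, in which interferon-inducible subunits such as Psmb8 and Psmb9 can take the place of constitutive ones, and the peptides are pumped into the endoplasmic reticulum by the Tap1-Tap2 heterodimer. There, tapasin (Tapbp) holds the empty heavy chain with its light chain β2-microglobulin (B2m) at the transporter until a peptide fits. H2-K1 and H2-D1 are the classical heavy chains, H2-T23 encodes Qa-1, a non-classical chain read by NK cell and T cell receptors, and Nlrc5 drives transcription of many of these genes. Microglia hold class I at a low level at rest, and interferons and NF-κB signalling are known inducers of the pathway.

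Total counts per library ranged from 19521877 to 27288843. Anxa2, the targeted gene, was at 165, 174 and 177 CPM in shCtrl untreated, 251, 295 and 291 CPM in shCtrl OGD/R, 34.96, 44.4 and 41.8 CPM in shAnxa2 untreated and 18.2, 20.1 and 20.6 CPM in shAnxa2 OGD/R, so the highest shAnxa2 library stayed under the lowest shCtrl library, as the line labels say. All 12 microglia and macrophage markers examined passed the filter, with a summed level of 1987 to 2354 CPM over the libraries. They differed widely in level, with group means of 398 to 584 CPM for Csf1r. Aif1, Cx3cr1, Tmem119 and P2ry12 were low, with group means between 1.73 and 10.3 CPM. The markers of neurons, astrocytes, fibroblasts and B cells summed to less than 1 CPM in every library, those of endothelial cells to 0.458 to 2.09 CPM and those of oligodendrocytes to 4.08 to 6.61 CPM, and all 5 T and NK cell markers were at 0. The treatment labels were checked with a list of hypoxia targets. In shCtrl cells, 8 of 11 tested targets were higher with OGD/R while 2 were lower, beside 32.4% and 31% of all genes tested. Ndrg1, a hypoxia-induced gene, went from 10.8 ± 1.37 to 72.2 ± 7.75 CPM (SD, n = 3) in shCtrl cells. In shAnxa2 cells 1 was higher and 8 were lower in the libraries labelled OGD/R, beside 28.2% and 26.8% of all genes tested. Ndrg1 was at 48.8 ± 0.996 CPM in the shAnxa2 libraries labelled untreated and 8.40 ± 1.34 CPM in those labelled OGD/R. The hypoxia targets thus went against the treatment labels in the shAnxa2 line. Other labels name the cell type after the treatment, at odds with the sample titles, and the titles were used for the groups. On the first principal component of all tested genes, which held 51.2% of the variance, the shCtrl untreated libraries lay on the side of those labelled shAnxa2 OGD/R, and the shCtrl OGD/R libraries on the side of those labelled shAnxa2 untreated. With the 2 treatment labels of the shAnxa2 line exchanged, OGD/R in shAnxa2 cells turns its sign in every gene. The other comparisons with shAnxa2 libraries then give other values. These are printed for the 10 genes, some ratios and the share of counts. All further comparisons with shAnxa2 libraries, among them those of the gene lists, are given by label only. No library was relabelled. Neither labels nor methods name a sequencing batch, and the labels do not say whether the libraries of a group came from separate cultures. The study's methods call them biological replicates, each made up of technical ones, and the p-values measure the spread between these libraries.

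On mm39, the build of the deposited table, 8 of the 10 genes lay on chromosome 17. These were Tapbp (ENSMUSG00000024308, 34134873 to 34148266, plus strand), H2-K1 (ENSMUSG00000061232, 34214991 to 34219321, minus strand), Psmb9 (ENSMUSG00000096727, 34400961 to 34406738, minus strand), Tap1 (ENSMUSG00000037321, 34406527 to 34416199, plus strand), Psmb8 (ENSMUSG00000024338, 34416695 to 34420428, plus strand), Tap2 (ENSMUSG00000024339, 34422501 to 34435295, plus strand), H2-D1 (ENSMUSG00000073411, 35481706 to 35486475, plus strand) and H2-T23 (ENSMUSG00000067212, 36340665 to 36343747, minus strand). B2m (ENSMUSG00000060802) lay on chromosome 2 from 121978167 to 121983564 on the plus strand, and Nlrc5 (ENSMUSG00000074151) on chromosome 8 from 95160984 to 95253900 on the plus strand. Psmb9, Tap1, Psmb8 and Tap2 filled 34335 bases in a row, and the gene models of Psmb9 and Tap1, which are read in opposite directions, overlapped by 212 bases. The library kit does not mark the strand, so reads from these 212 bases cannot be told apart between both genes.

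Upstream sequence was taken from the RefSeq promoter table of GRCm38.p6, which held a window of 250 bases before to 50 bases after the start for 8 of the 10 genes. H2-K1 had 2 such starts, whose windows overlap and hold the same matches, and positions are given from the one printed. Those printed are the 4 that held a core of the interferon-stimulated response element (GAAANNGAA) or an NF-κB form (GGNNTTTCC or GGGNNTCCC) on either strand, because interferon and NF-κB are the known inducers of these genes. Each line gives 120 upstream bases, 5′ to 3′ in the direction of the gene, with GRCm38.p6 coordinates and the matches in capitals.
B2m, chr2:122147498-122147617, plus strand: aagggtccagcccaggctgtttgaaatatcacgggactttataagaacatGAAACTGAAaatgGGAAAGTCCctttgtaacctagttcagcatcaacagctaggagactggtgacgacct
H2-K1, chr17:34000404-34000523, minus strand: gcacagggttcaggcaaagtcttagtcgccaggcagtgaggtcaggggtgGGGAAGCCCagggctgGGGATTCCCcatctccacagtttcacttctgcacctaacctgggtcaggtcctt
H2-D1, chr17:35262858-35262977, plus strand: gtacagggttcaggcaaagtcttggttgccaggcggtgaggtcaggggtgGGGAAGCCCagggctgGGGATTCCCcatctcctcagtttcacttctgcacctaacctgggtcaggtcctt
H2-T23, chr17:36032755-36032874, minus strand: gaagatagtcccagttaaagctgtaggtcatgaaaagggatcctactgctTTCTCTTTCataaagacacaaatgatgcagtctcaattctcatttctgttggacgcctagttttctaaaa

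With position −1 as the base before the start, the B2m stretch held GAAACTGAA at −139 to −131, a response element core, and GGAAAGTCC at −126 to −118, the first NF-κB form read on the other strand. H2-K1 and H2-D1 both held GGGAAGCCC and, 7 bases further on, GGGATTCCC, of which the latter matches the second NF-κB form on both strands. These lay at −126 to −118 and −110 to −102 for H2-K1 and at −186 to −178 and −170 to −162 for H2-D1, and both 120-base stretches were identical at 115 positions (95.8%). H2-T23 held TTCTCTTTC at −123 to −115, the response element core on the other strand. The response element was searched only as GAAANNGAA. The H2-K1 and H2-D1 stretches both held tttcacttc after GGGATTCCC, which GAAANNGAA does not match on either strand. The lack of a match in their windows therefore does not show that an interferon response element is absent. Of all 32851 windows in the table, 8.56% held the response element core, 5.82% the first NF-κB form and 5.66% the second. ATTGG, the inverted CCAAT or Y box, was in 7 of the 8 windows, all but that of Psmb8, against 37.4% of all windows. The windows of Psmb9 and Tap1 overlap and hold this match at the same genomic site, which was thus counted for both genes. TTCNNNGAA, the STAT form, was in the Psmb8 window alone, as TTCCCAGAA at −97 to −89, against 8.3% of all windows. TGACGCA and TGACGTCA, forms of the X2 box and CRE, were in none of the 8 windows, against 2.12% and 1.79% of all windows. The H2-K1 and H2-D1 windows held TGACGCG, which differs from TGACGCA in its last base and was not searched. The absence of both strings therefore does not show that an X2 box is absent. These matches are descriptions of the letters in these windows, and the counts here do not measure binding.

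Sequence shared between genes can misplace reads. Of the 50-base windows of the longest coding transcript (GENCODE annotation of GRCm38), 28.81% for H2-T23, 14.32% for H2-D1 and 8.79% for H2-K1 also occurred in another gene, most often in an H2-T pseudogene, in H2-Q1 and in H2-D1, respectively. For the other 7 genes the share was 2% or less. The values of the 3 heavy chains therefore carry an uncertainty that depends on how reads with several matches were counted, which is not given in the sources used here.

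Expression was first compared between the genes per length, as CPM per kb of merged exon. CPM were computed on the counts of tested genes and scaled by the TMM factor of the library. H2-D1 and H2-K1 were the highest, at 234 ± 10.8 and 156 ± 8.005 CPM per kb (SD, n = 3) in shCtrl untreated cells, followed by their light chain B2m at 104 ± 24.6 CPM per kb. Tapbp (15.4 ± 0.833), Psmb8 (14.05 ± 0.785) and Nlrc5 (10.8 ± 0.421 CPM per kb) came next. H2-T23 (6.58 ± 0.286), Tap1 (5.01 ± 0.228), Tap2 (3.52 ± 0.267) and Psmb9 (2.77 ± 0.394 CPM per kb) were the lowest in this group. The classical heavy chains thus stood more than 10-fold above every one of the processing and transport genes on this scale. Of all counts of a library, the 10 genes took 0.139% to 0.146% in shCtrl untreated, 0.209% to 0.232% in shCtrl OGD/R, 0.231% to 0.246% in shAnxa2 untreated and 0.199% to 0.223% in shAnxa2 OGD/R libraries, and H2-K1 with H2-D1 made up 72.9% to 81.3% of that. Every shCtrl OGD/R library was above every shCtrl untreated library, by 0.0749 percentage points on average, and every library labelled shAnxa2 OGD/R was below every one labelled shAnxa2 untreated, by 0.0293 percentage points (two-sided exact permutation test, p = 0.1 each, the smallest p that 3 libraries against 3 allow). In bulk RNA, a change in the number of expressing cells and a change in RNA per cell cannot be told apart.

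**Figure D1:**
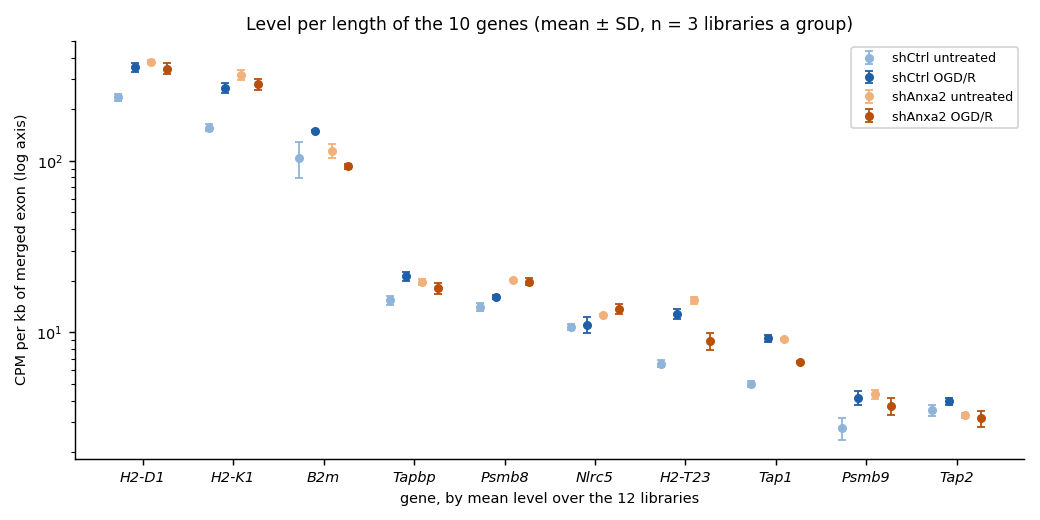
CPM per kb of merged exon (log axis) of the 10 genes, ordered by mean level, with the mean and SD of 3 libraries for each of the 4 groups. H2-D1, H2-K1 and B2m lie well above the other 7 genes in every group, at 93.0 to 377.5 CPM per kb against at most 21.2.

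Heavy chains, which bind the peptide, were read out in every library. H2-K1 was at 483, 436 and 459 CPM in the shCtrl untreated libraries, 842, 755 and 756 CPM in shCtrl OGD/R, 876, 927 and 999.8 CPM in those labelled shAnxa2 untreated and 810.02, 764 and 891 CPM in those labelled shAnxa2 OGD/R. The shCtrl untreated libraries were the lowest and did not overlap with any other group, the shCtrl OGD/R libraries overlapped with those labelled shAnxa2 OGD/R, and the latter overlapped at their top with those labelled shAnxa2 untreated. H2-D1 was at 625, 572 and 614 CPM in the shCtrl untreated libraries, 960.5, 867 and 881 CPM in shCtrl OGD/R, 947, 972 and 1002 CPM in those labelled shAnxa2 untreated and 885, 825 and 954 CPM in those labelled shAnxa2 OGD/R. It had the same lowest group without overlap, and the other 3 groups overlapped with each other. H2-T23, the Qa-1 gene, was at 19.8, 18.9 and 18.2 CPM in the shCtrl untreated libraries, 39.7, 37.1 and 34.7 CPM in shCtrl OGD/R, 45.5, 42.2 and 45.8 CPM in those labelled shAnxa2 untreated and 24.3, 23.9 and 29.1 CPM in those labelled shAnxa2 OGD/R. Its 4 groups did not overlap, in the order shCtrl untreated, shAnxa2 OGD/R, shCtrl OGD/R and shAnxa2 untreated from low to high.

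B2m, the light chain without which heavy chains do not reach the surface, was at 77.3, 114 and 77.7 CPM in the shCtrl untreated libraries, 129, 127 and 129 CPM in shCtrl OGD/R, 108, 99.4 and 88.9 CPM in those labelled shAnxa2 untreated and 82.1, 76.6 and 81.2 CPM in those labelled shAnxa2 OGD/R. The shCtrl OGD/R libraries were above all others and lay within 2 CPM of each other. In the shCtrl untreated group 1 library stood at 114.2 CPM, from 3116 counts, while the other two had 1850 and 2115 counts, so this group overlapped with both shAnxa2 groups.

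Tap1, the first transporter subunit, was at 26.7, 26.7 and 28.9 CPM in the shCtrl untreated libraries, 52.96, 49.8 and 48.7 CPM in shCtrl OGD/R, 49.8, 49.3 and 51.003 CPM in those labelled shAnxa2 untreated and 37.4, 36.9 and 36.2 CPM in those labelled shAnxa2 OGD/R. It was lowest in shCtrl untreated and next in shAnxa2 OGD/R, both without overlap, and the remaining groups overlapped with each other. Tap2, the second subunit, was at 13.1, 12.4 and 14.4 CPM in the shCtrl untreated libraries, 15.3, 14.2 and 15.6 CPM in shCtrl OGD/R, 12.7, 12.7 and 11.996 CPM in those labelled shAnxa2 untreated and 13.4, 10.8 and 11.5 CPM in those labelled shAnxa2 OGD/R. Each group overlapped with its neighbour in the order of levels, and only shCtrl OGD/R stood clear of both shAnxa2 groups. Tapbp was at 53.7, 59.2 and 54.3 CPM in the shCtrl untreated libraries, 81.9, 71.8 and 77.4 CPM in shCtrl OGD/R, 74.7, 69.7 and 70.3 CPM in those labelled shAnxa2 untreated and 61.9, 63.7 and 70.9 CPM in those labelled shAnxa2 OGD/R. It was lowest in shCtrl untreated, with shAnxa2 OGD/R next and below shCtrl OGD/R, and the libraries labelled shAnxa2 untreated overlapped with both OGD/R groups.

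Psmb8 (LMP7), a catalytic subunit of the immunoproteasome, was at 49.6, 44.5 and 48.3 CPM in the shCtrl untreated libraries, 54.5, 55.5 and 53.1 CPM in shCtrl OGD/R, 68.5, 68.2 and 69.2 CPM in those labelled shAnxa2 untreated and 65.01, 64.8 and 70.7 CPM in those labelled shAnxa2 OGD/R. Both shAnxa2 groups lay above both shCtrl groups and overlapped with each other. Psmb9 (LMP2) was at 11.8, 9.13 and 9.48 CPM in the shCtrl untreated libraries, 16.5, 15.5 and 13.7 CPM in shCtrl OGD/R, 15.3, 17.04 and 15.5 CPM in those labelled shAnxa2 untreated and 12.04, 13.8 and 14.99 CPM in those labelled shAnxa2 OGD/R. It was lowest in shCtrl untreated without overlap, and shAnxa2 OGD/R and shAnxa2 untreated did not overlap with each other. Nlrc5, the transactivator, was at 95.8, 88.8 and 90.9 CPM in the shCtrl untreated libraries, 105, 91.5 and 86.2 CPM in shCtrl OGD/R, 107, 109 and 107 CPM in those labelled shAnxa2 untreated and 108, 122 and 120.3 CPM in those labelled shAnxa2 OGD/R. The shCtrl groups overlapped with each other, and so did the shAnxa2 groups, which both lay above all shCtrl libraries.

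**Figure D2:**
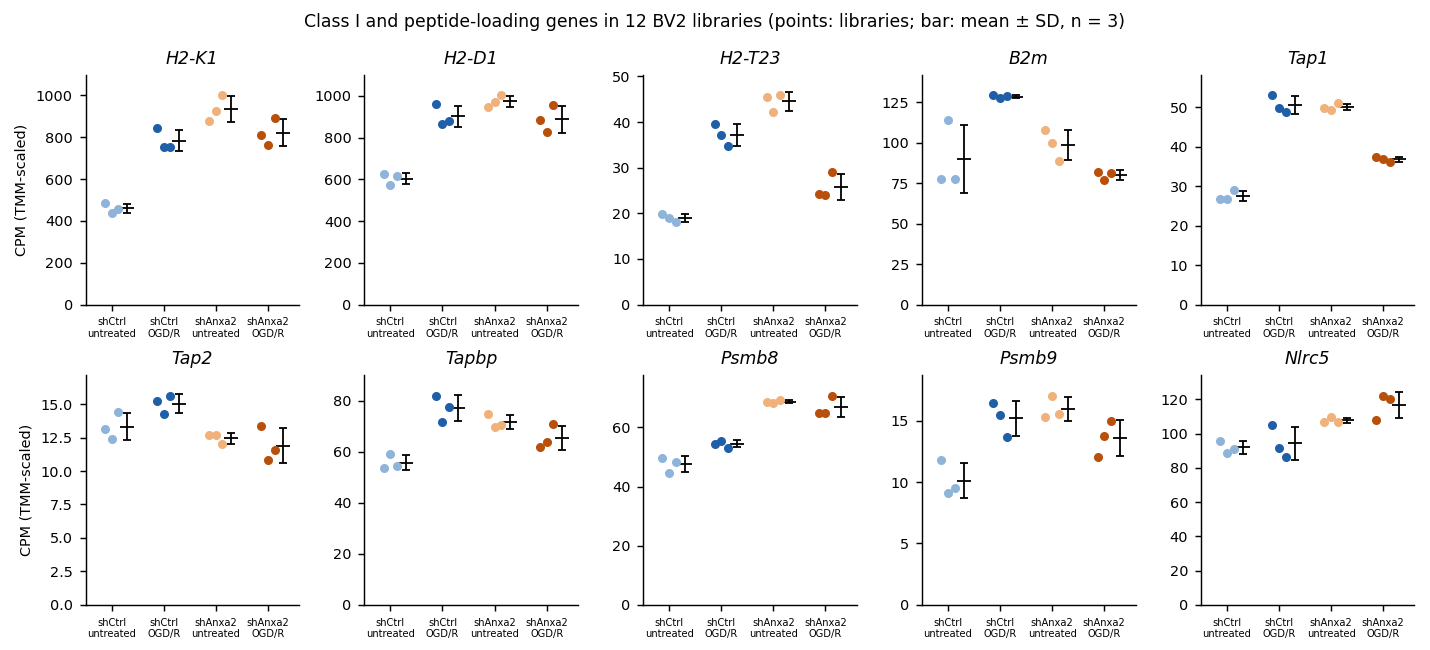
TMM-scaled CPM of each of the 10 genes in the 12 libraries (points) with the mean and SD of each group of 3, every axis from 0. In 8 of the 10 genes shCtrl untreated has the lowest mean and the mean of the libraries labelled shAnxa2 untreated is near or above that of shCtrl OGD/R, while B2m and Tap2 have their lowest mean in shAnxa2 OGD/R.

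The first comparison asked what OGD/R changes in control cells. In shCtrl cells 8 of the 10 genes were higher with OGD/R and none was lower (edgeR quasi-likelihood test over 11626 genes, Benjamini-Hochberg adjusted p under 0.05). Over all genes tested 32.4% were higher and 31% lower. The median log2 fold change of the 10 was 0.55 and that of all genes 0.0045. H2-T23 rose 1.96-fold (log2 fold change 0.97, SE 0.0782, adjusted p = 1.19e-10 from edgeR), which was the largest value, and Tap1 rose 1.84-fold (log2 0.88, SE 0.0600). The classical chains rose by a log2 fold change of 0.77 for H2-K1 (SE 0.0600) and 0.58 for H2-D1 (SE 0.0535). Psmb9 rose by 0.60, B2m by 0.52, Tapbp by 0.47 and Psmb8 by 0.20 on the log2 scale, and in all 8 genes the 3 OGD/R libraries lay above the 3 untreated ones, as they did in 34.7% of all genes, while 33.3% had all of them below. Tap2 (0.17, 95% CI −0.021 to 0.37, edgeR adjusted p = 0.112) and Nlrc5 (0.039, 95% CI −0.087 to 0.17, adjusted p = 0.589) did not pass the test. None of the 10 had an unadjusted p under 0.05 with a log2 fold change of at least 1, which 6.86% of all genes had. With a fold change above 1.2 or below 0.8 in its place, 7 of the 10 passed (all that were called but Psmb8), against 45.7% of all genes. Without the shCtrl untreated library of high B2m, the B2m value became 0.74 on the log2 scale.

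In shAnxa2 cells, the same comparison gave 5 lower genes and none higher, against 26.8% lower and 28.2% higher over all genes. These signs follow labels that the hypoxia targets went against. The median log2 fold change of the 10 was −0.16, and that of all genes 0.0044. H2-T23 was −0.79 (SE 0.0768, edgeR adjusted p = 7.49e-09) and Tap1 −0.44 (SE 0.0596, adjusted p = 1.08e-06) on the log2 scale. In these 2 genes, in B2m and in Psmb9 every library labelled OGD/R lay below every one labelled untreated, as in 28.8% of all genes, while 30.1% had all of them above. The calls of B2m (−0.30, adjusted p = 0.0112), H2-K1 (−0.19, adjusted p = 0.0106) and H2-D1 (−0.13, adjusted p = 0.038) were each lost when some libraries were left out. B2m was lost without shAnxa2 untreated replicate 1 (adjusted p = 0.0708). H2-K1 was lost without shAnxa2 untreated replicate 3 (0.0755) or shAnxa2 OGD/R replicate 2 (0.07), and either omission left 3 of the 10 genes called. H2-D1 was lost without shAnxa2 untreated replicate 2 (adjusted p = 0.0717) or 3 (0.116) and without shAnxa2 OGD/R replicate 1 (0.0832) or 2 (0.2). Psmb9 (−0.23, adjusted p = 0.0764), Tapbp (−0.13, 0.0862), Tap2 (−0.067, 0.595), Psmb8 (−0.039, 0.578) and Nlrc5 (0.12, 0.105) did not pass (adjusted p from edgeR). Without shAnxa2 OGD/R replicate 3, Tapbp (−0.19, adjusted p = 0.0146) and Psmb9 (−0.30, 0.035) passed, and without replicate 1 of that group Nlrc5 passed as higher (0.17, 0.0321). None of the 10 passed the limit of 1 on the log2 scale, against 3.8% of all genes, and with a fold change above 1.2 or below 0.8 H2-T23 and Tap1 passed, against 37.1%.

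The untreated lines were compared to see what differed before treatment, again by label. In the libraries labelled untreated, 8 of the 10 genes were higher in the shAnxa2 line and none was lower, against 29.5% higher and 29.7% lower over all genes. This comparison shares its shCtrl untreated libraries with that of OGD/R in shCtrl cells, so both move with these 3 libraries. H2-T23 was 2.35-fold higher (log2 1.23, SE 0.0778, edgeR adjusted p = 2.44e-12) and H2-K1 2.03-fold (log2 1.02, SE 0.0602), and these were the 2 genes past a log2 fold change of 1, against 5.81% of all genes. With a fold change above 1.2 or below 0.8, 7 of the 10 passed, against 40.4%. Tap1 was higher by 0.87, H2-D1 by 0.69, Psmb9 by 0.66, Psmb8 by 0.53, Tapbp by 0.36 and Nlrc5 by 0.23 on the log2 scale, and in all 8 every shAnxa2 library lay above every shCtrl library, as in 31.6% of all genes, while 32% had all of them below. Tap2 was at −0.10 (95% CI −0.30 to 0.10) without passing. B2m did not pass either (0.13, 95% CI −0.065 to 0.33, edgeR adjusted p = 0.239), but without the shCtrl untreated library of high B2m, replicate 2, it was higher by 0.35 (adjusted p = 6.45e-05). With the treatment labels of the shAnxa2 line exchanged, 8 of the 10 were again higher and none lower, against 21.5% and 18.4% of all genes, with a median of 0.43 for the 10 in place of 0.60.

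After OGD/R, the shAnxa2 line had 5 of the 10 genes lower and 2 higher than the shCtrl line, with 34.2% lower and 33.8% higher over all genes. B2m was −0.68 (SE 0.0963, edgeR adjusted p = 9.87e-07), H2-T23 −0.53 (SE 0.0773), Tap1 −0.46 (SE 0.0594), Tap2 −0.34 (SE 0.0971) and Tapbp −0.23 (SE 0.0618) on the log2 scale. B2m, both transporter subunits and Tapbp were thus lower, while Nlrc5 (0.31, SE 0.0609) and Psmb8 (0.30, SE 0.0557) were higher. The 5 lower genes had all shAnxa2 libraries below all shCtrl libraries, as in 35.3% of all genes, and the 2 higher genes had all of them above, as in 34.6%. The classical chains did not pass, with 95% intervals of −0.056 to 0.19 for H2-K1 and −0.13 to 0.086 for H2-D1. Psmb9 was at −0.16 (edgeR adjusted p = 0.181). None of the 10 passed the limit of 1 on the log2 scale, against 10.2% of all genes, and 6 passed a fold change above 1.2 or below 0.8, against 51.8%. With the treatment labels of the shAnxa2 line exchanged, 4 genes were higher and 2 lower, against 22.1% and 22% of all genes. H2-T23 then turned to 0.26 (edgeR adjusted p = 0.0063) and H2-K1 passed as higher (0.25, adjusted p = 0.0013), while Tap1 (−0.013, adjusted p = 0.871) and Tapbp (−0.11, 0.164) no longer passed.

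**Figure D3:**
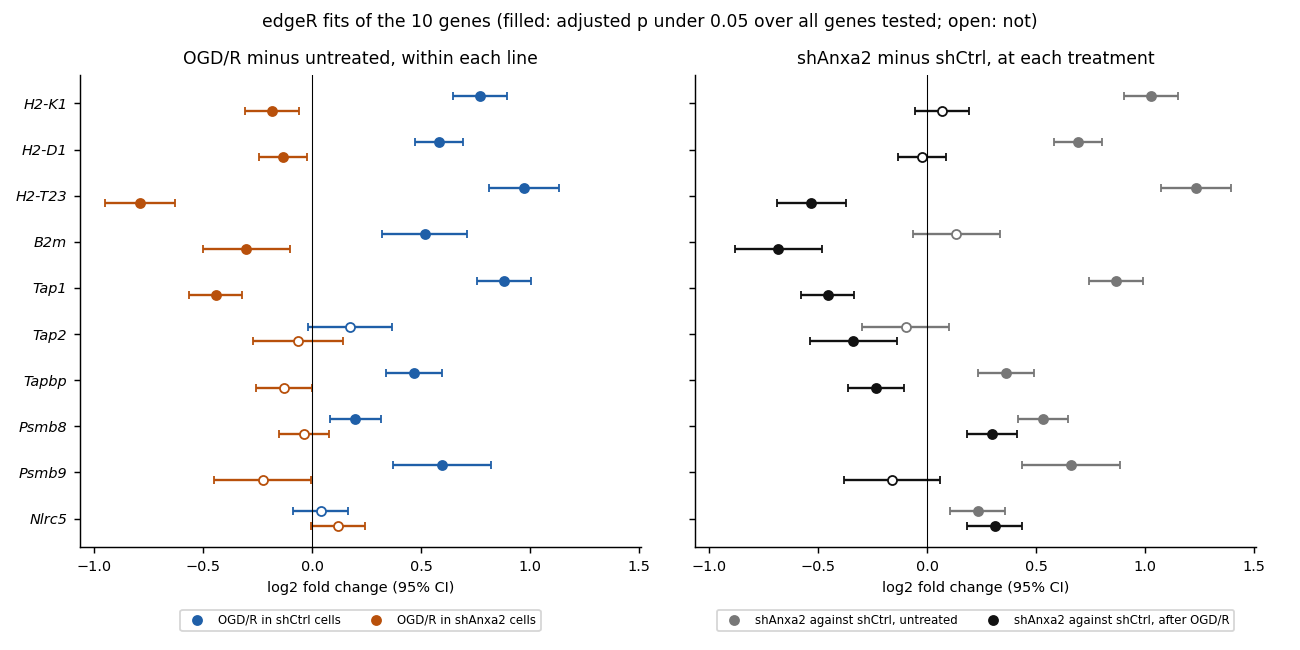
Log2 fold changes of the 10 genes with 95% confidence intervals from the edgeR fit, for OGD/R within each line (left) and shAnxa2 against shCtrl at each treatment (right). Filled points passed an adjusted p under 0.05. The shCtrl OGD/R values are above 0 for all 10 genes, whereas the shAnxa2 OGD/R values by label are below 0 for all but Nlrc5.

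Whether the OGD/R change differed between the lines was tested as an interaction. At an adjusted p under 0.05 it was called negative for 8 of the 10 genes and positive for none. Over all genes 35.1% were called lower and 34.9% higher, and the medians were −0.77 for the 10 and −0.0061 for all. The largest were H2-T23 (−1.76, SE 0.110, edgeR adjusted p = 6.31e-13) and Tap1 (−1.32, SE 0.0846, adjusted p = 1.04e-12), which were the 2 past a log2 value of 1, as were 21.7% of all genes, and 7 lay past a fold of 1.2 or 0.8, against 63.8%. H2-K1 (−0.96), Psmb9 (−0.82), B2m (−0.82), H2-D1 (−0.71), Tapbp (−0.59) and Psmb8 (−0.24) followed. Tap2 (−0.24, 95% CI −0.52 to 0.043) and Nlrc5 (0.078, 95% CI −0.10 to 0.26) did not pass. Tap2 passed without shAnxa2 OGD/R replicate 1 (−0.33, adjusted p = 0.0424). The size of these values rests on the treatment labels of the shAnxa2 line, in which the interaction of Ndrg1 was −5.26 and that of Vegfa −1.79. With these labels exchanged, 4 of the 10 genes were still called negative and none positive, against 7.96% lower and 6.44% higher over all genes. The median of the 10 was then −0.28. Those called were H2-K1 (−0.59, edgeR adjusted p = 6.04e-05), H2-D1 (−0.45, adjusted p = 0.000307), Tap1 (−0.44, adjusted p = 0.00124) and Tapbp (−0.34, adjusted p = 0.0111). H2-T23 (−0.18, adjusted p = 0.286), B2m (−0.21, 0.315), Psmb8 (−0.16, 0.184) and Psmb9 (−0.37, 0.109) no longer passed.

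Ratios of counts between partner genes within a library do not depend on library size. Tap1 over Tap2, the transporter subunits, was 2.06 ± 0.0762 (SD, n = 3) in shCtrl untreated, 3.36 ± 0.214 in shCtrl OGD/R, 4.03 ± 0.196 in shAnxa2 untreated and 3.11 ± 0.309 in shAnxa2 OGD/R libraries. It was higher in all 3 OGD/R libraries of shCtrl, by 0.70 on the log2 scale, and lower in all 3 libraries labelled OGD/R of shAnxa2, with a log2 difference of −0.37 (two-sided exact permutation test, p = 0.1 each, the smallest possible). Tap1 and Tap2 counts thus did not move in proportion. H2-K1 over B2m was 5.32 ± 1.31 and 6.11 ± 0.361 in the shCtrl groups and 9.57 ± 1.57 and 10.3 ± 0.608 in the shAnxa2 groups. Every shAnxa2 library was above every shCtrl library of the same label, and the treatments overlapped within each line. The shCtrl untreated library of high B2m had the lowest H2-K1 over B2m, at 3.82. H2-D1 over B2m followed the same order, from 6.997 ± 1.72 and 7.03 ± 0.356 in shCtrl to 9.95 ± 1.25 and 11.1 ± 0.564 in shAnxa2 cells. H2-D1 over H2-K1 was 1.31 ± 0.0233 in shCtrl untreated, 1.15 ± 0.0128 in shCtrl OGD/R, 1.04 ± 0.0391 in shAnxa2 untreated and 1.08 ± 0.0105 in shAnxa2 OGD/R libraries, so the count of H2-K1 moved further than that of H2-D1 after OGD/R in shCtrl cells (log2 difference −0.19, no overlap).

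For the proteasome, each inducible subunit was set against the constitutive subunit it can take the place of. Psmb8 over Psmb5 was between 0.179 and 0.229 in all 12 libraries, and all groups overlapped, although both counts differed between the lines. Psmb9 over Psmb6 was 0.0244 ± 0.00263, 0.0297 ± 0.00379, 0.0274 ± 0.000595 and 0.0261 ± 0.00233 in shCtrl untreated, shCtrl OGD/R, shAnxa2 untreated and shAnxa2 OGD/R libraries, with overlap in each of the 4 comparisons. Psmb10 over Psmb7, the third pair, was 0.365 ± 0.0342 and 0.284 ± 0.0146 in shCtrl and 0.316 ± 0.0177 and 0.407 ± 0.00883 in shAnxa2 cells. This ratio was lower in every shCtrl OGD/R library (log2 difference −0.36) and higher in every one labelled shAnxa2 OGD/R (0.37), opposite to Tap1 over Tap2. In all, 7 ratios were compared over 4 pairs of groups, and with 3 libraries against 3 none could reach a p under 0.1.

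**Figure D4:**
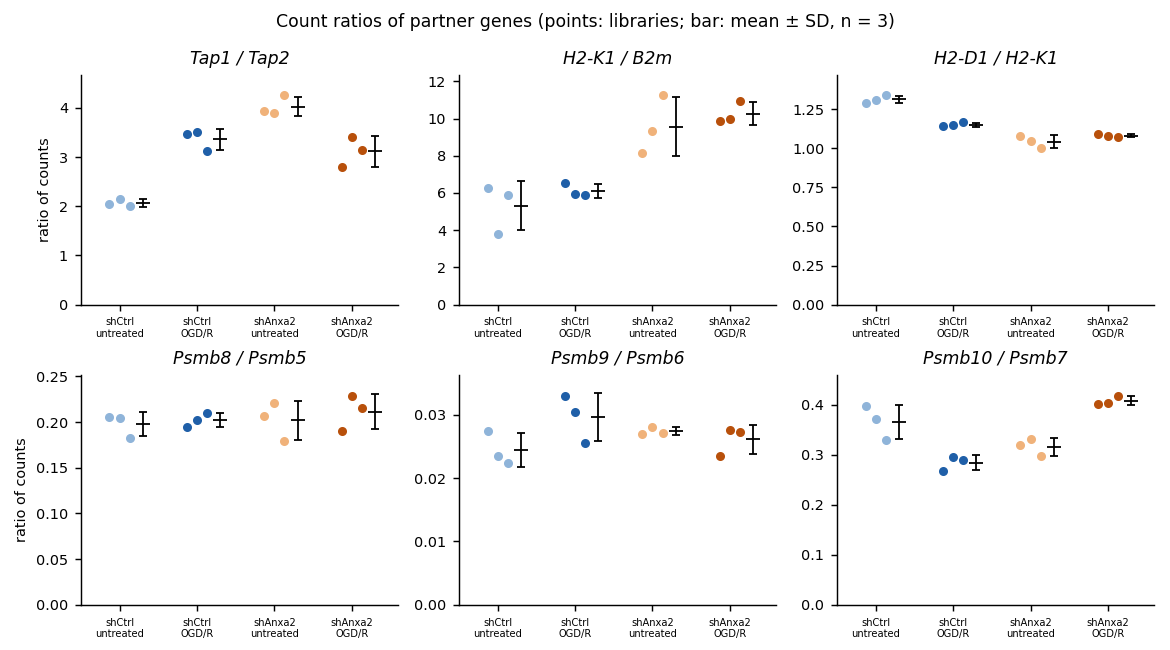
Ratios of counts of 6 gene pairs in the 12 libraries (points), with the mean and SD of each group of 3 and axes from 0. Tap1/Tap2 and Psmb10/Psmb7 separate the treatments within each line in opposite directions, H2-K1/B2m separates the lines, and Psmb8/Psmb5 overlaps between all groups.

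The profiles of the 10 genes were then compared with each other. Likeness was taken as the RMS (root mean square) of the difference over the 12 libraries of log2(CPM + 0.1) centred on each gene's mean, which is a description without a test. The closest pair was H2-D1 and Psmb9 (RMS 0.117), followed by Psmb8 with Nlrc5 (0.128) and H2-K1 with H2-D1 (0.129). Tap1 and H2-T23 were nearest to each other (0.172), and Tapbp was the member nearest to both B2m (0.214) and Tap2 (0.211). The farthest pair was Tap2 and H2-T23 (0.490). Their centred values spanned 0.528 and 1.33 on the log2 scale, and the RMS grows with such a difference in size. Among 10509 other genes that averaged 1 CPM or more, those nearest to the mean profile of the 10 were Agpat3 (RMS 0.0525), Cdkn2a (0.0531), Fcsk, Ndufv1, Gng2, Mtmr9, Skiv2l, Ptprs, Pex7 and Denn2b (0.0632), none of which is a class I gene. H2-D1 itself lay at 0.0867 and Tapbp at 0.0926 from that profile.

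Other class I heavy chains were taken as a list, of which 18 of 24 were in the table and 8 passed the filter. Of these 8, OGD/R in shCtrl cells gave 7 higher and 1 lower (list median log2 fold change 0.71), none was higher and 7 lower in shAnxa2 cells by label (−0.47), and all 8 were higher in the untreated shAnxa2 line (0.59). After OGD/R, 1 was higher and 4 lower in shAnxa2 cells. Over all genes, 32.4% were higher and 31% lower with OGD/R in shCtrl cells, and 28.2% and 26.8% in shAnxa2 cells. Between the lines these shares were 29.5% and 29.7% untreated, and 33.8% and 34.2% after OGD/R. H2-Q4, a class Ib chain, was at 8.76, 20.2, 26.4 and 17.7 CPM in shCtrl untreated, shCtrl OGD/R, shAnxa2 untreated and shAnxa2 OGD/R, and rose by 1.21 on the log2 scale in shCtrl cells (edgeR adjusted p = 1.85e-10). Fcgrt, the neonatal Fc receptor, rose by 1.31 in shCtrl cells and was −1.17 in shAnxa2 cells, and Mr1, which presents vitamin metabolites, rose by 1.03 and was −0.64. H2-T22 (0.74 and −0.56) and H2-M3 (0.69 and −0.37) gave smaller values in the same directions. Cd1d1, which presents lipids, was the one that fell in shCtrl cells (−0.40, chosen after its values were seen). The H2-Q and H2-T genes share sequence with each other, and their values are uncertain for that reason.

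Chaperones and trimming enzymes fold heavy chains and shorten peptides. Of 15 tested, OGD/R in shCtrl cells gave 2 higher and 8 lower (median −0.26), beside 32.4% and 31% of all genes. In shAnxa2 cells by label it gave 7 higher and 4 lower (0.20), beside 28.2% and 26.8%. Between the untreated lines 2 were higher and 8 lower, beside 29.5% and 29.7%. After OGD/R, 8 were higher and 4 lower between the lines, beside 33.8% and 34.2%. Calr, calreticulin, fell from 2226 ± 118 to 1196 ± 95.8 CPM in shCtrl cells (log2 −0.90, SE 0.0507) and was at 1694 ± 58.7 CPM in shAnxa2 untreated and 2158 ± 37.02 CPM in shAnxa2 OGD/R. Npepps, a cytosolic aminopeptidase, rose by 0.44 in shCtrl cells and was −0.49 in shAnxa2 cells. Tapbp and Tap1 were thus higher and Calr lower after OGD/R in the same shCtrl libraries.

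Of the 6 further immunoproteasome and activator genes, 3 were higher and 2 lower in shCtrl cells after OGD/R, beside 32.4% and 31% of all genes. Psme2, a subunit of the PA28αβ activator, rose by 0.49 in shCtrl cells and was −0.36 in shAnxa2 cells, while Psme3, the nuclear PA28γ, fell by 0.61 and was 0.25. Of the 3 constitutive catalytic subunits, 1 was higher in shCtrl cells, which was Psmb6 (0.31). All 3 were higher in the untreated shAnxa2 line, among them Psmb5 (0.51), beside 29.5% of all genes.

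Of 18 regulators of class I transcription, OGD/R in shCtrl cells gave 7 higher and 4 lower (median −0.014), beside 32.4% and 31% of all genes, and in shAnxa2 cells it gave 5 in each direction, beside 28.2% and 26.8%. Rfxank, a subunit of the RFX complex that binds the X box with Nlrc5, rose by 0.70 in shCtrl cells and was −0.29 in shAnxa2 cells. Ezh2, a histone methyltransferase, fell by 0.41 and was 0.50 in the same comparisons.

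The MHC class II chains were near absent. H2-Aa, H2-Ab1 and H2-Eb1 had at most 6 counts in any library. Of 5 tested genes of the class II list, 3 were higher and none lower in shCtrl cells after OGD/R, and none was higher and 4 lower in shAnxa2 cells. The shares of all genes were 32.4% higher and 31% lower in shCtrl cells, and 28.2% and 26.8% in shAnxa2 cells. Cd74, the invariant chain, rose by 0.45 in shCtrl cells and was −0.58 in shAnxa2 cells, H2-Oa gave 0.99 and −1.06, and H2-DMb1 0.56 and −0.36. Ciita, the class II transactivator, was higher in the untreated shAnxa2 line (2.26, edgeR adjusted p = 0.0003), from 3 to 6 counts in shCtrl and 13 to 20 counts in shAnxa2 libraries.

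Interferon ligands were at or near 0, with no count of Ifng in any library and at most 6 counts of Ifnb1. Of 9 tested genes of the receptor signalling list, 7 were higher and none lower in shCtrl cells after OGD/R (median 0.29), beside 32.4% and 31% of all genes. In shAnxa2 cells 1 was higher and 4 lower, beside 28.2% and 26.8%. Tyk2, a kinase of the type I interferon receptor, rose by 1.36 in shCtrl cells (SE 0.0514) and was −1.06 (SE 0.0511) in shAnxa2 cells. Jak2 gave 0.94 and −0.66, and Ifngr2, a chain of the interferon γ receptor, gave 0.64 and −0.42. Socs1, an inhibitor of this signalling, was at −0.47 in shCtrl cells without passing the test and at 0.92 in shAnxa2 cells (edgeR adjusted p = 0.0368). Its counts were low, at 6 to 28 a library, with the lowest in a shAnxa2 untreated library.

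Among 17 tested interferon-stimulated genes, 6 were higher and 2 lower in shCtrl cells after OGD/R (median 0.15), a share of higher genes near the 32.4% of all genes. The share of all genes lower in shCtrl cells was 31%. In shAnxa2 cells 1 was higher and 7 lower (−0.26), beside 28.2% and 26.8% of all genes. Between the untreated lines 9 were higher in shAnxa2 and 2 lower (0.40), beside 29.5% and 29.7%. Cd274, the checkpoint ligand PD-L1, rose by 1.14 in shCtrl cells, Rsad2 by 1.12, Irf7 by 0.99, Oasl2 by 0.60 and Isg15 by 0.57. Of the guanylate-binding proteins, Gbp7 fell by 1.23 and Gbp3 by 0.72 in the same cells, and Gbp2 (0.49, edgeR adjusted p = 0.248) did not pass. Counts were low for Gbp7, at 11 to 45 a library, and for Isg15, at 23 to 53. In shAnxa2 cells by label, Rsad2 was −0.80, Irf7 −0.43, Cd274 −0.40 and Isg15 −0.56, all called lower.

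**Figure D5:**
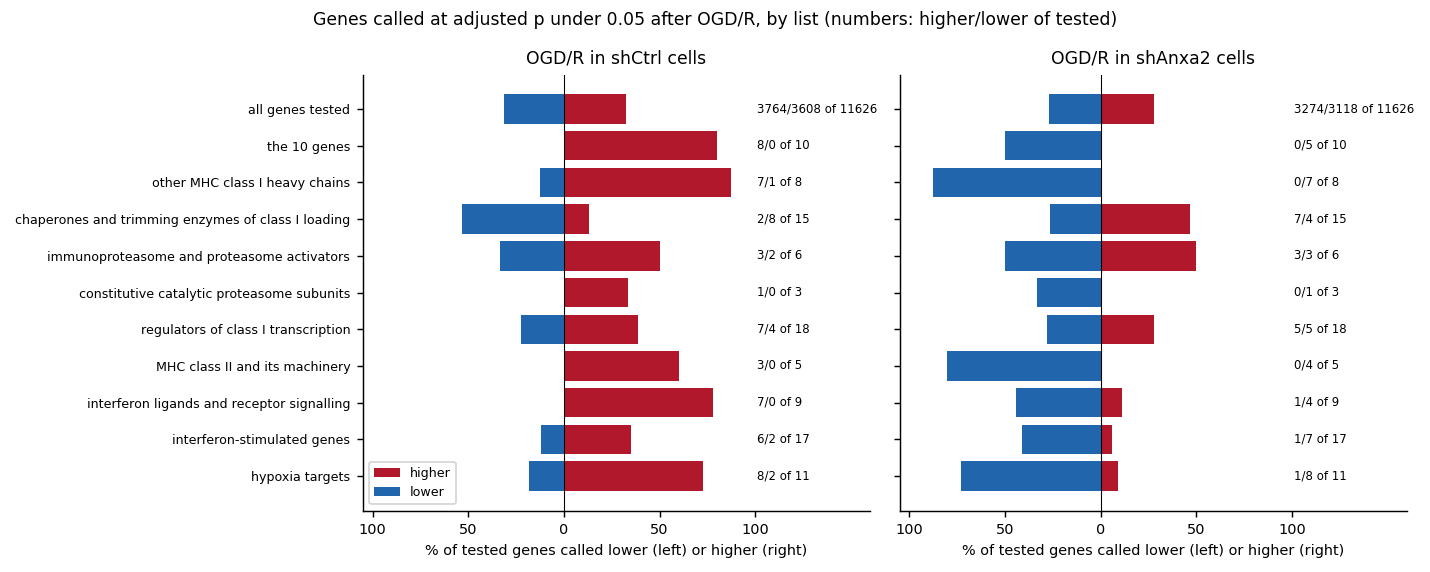
Percent of tested genes called higher (red, right) or lower (blue, left) after OGD/R in shCtrl cells and, by label, in shAnxa2 cells, for all genes tested, the 10 genes and 9 gene lists, with the counts printed beside the bars. The 10 genes and the other class I heavy chains lean to higher in shCtrl and to lower in shAnxa2 cells. The class II list, both interferon lists and the hypoxia targets lean the same way.

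The medians of the hypoxia targets had the same sign as those of the 10 genes in all 4 comparisons of groups, which share libraries. So did the medians of the other class I heavy chains, the class II list and the interferon receptor signalling list, but not those of the remaining lists. These signs were thus not particular to the hypoxia targets. The list medians of the hypoxia targets were 0.74 for OGD/R in shCtrl cells, −0.88 for OGD/R in shAnxa2 cells, 0.70 between the untreated lines and −1.06 between the lines after OGD/R, beside medians of 0.55, −0.16, 0.60 and −0.20 for the 10 genes. Among the hypoxia targets, the values in shCtrl and shAnxa2 cells were 1.68 and −2.19 for Bnip3, 1.45 and −1.28 for Ero1a, 0.92 and −0.88 for Vegfa, and 0.74 and −0.59 for Pdk1. Egln3 (2.38 and −2.61, from at most 40 counts), Ankrd37 (0.68 and −0.90) and Car9 (0.73 and −0.55, the latter not called) lay in the same order. The part of the hypoxia response in the class I values was not tested.

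The genes that lie between the members were counted as well. On chromosome 17 between Tapbp and H2-T23 (mm39, 34134873 to 36343747), 119 other genes were in the table and 78 were tested. Only the members were left out, so any other class I or class II gene of this stretch was counted. Of these, OGD/R in shCtrl cells had 32.1% higher and 28.2% lower, against 32.4% and 31% of all genes, and their median log2 fold change was 0.052. In shAnxa2 cells by label 38.5% were higher and 15.4% lower (median 0.065), against 28.2% and 26.8% of all genes. Between the untreated lines 34.6% were higher and 21.8% lower, against 29.5% and 29.7%. After OGD/R, 38.5% were higher and 19.2% lower between the lines, against 33.8% and 34.2%. The interaction was called higher for 37.2% and lower for 30.8%, against 34.9% and 35.1%.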

How the data were processed

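BV2 lines with control or Anxa2 shRNA, untreated or after OGD/R, were profiled by RNA-seq in 12 libraries (NEBNext Ultra kit, total RNA). The authors deposited raw read counts per gene for 21834 protein-coding genes, in mm39 coordinates. The submitters' processing notes name HISAT2 2.0.4 and mm39, while the study's methods, written for hippocampi, name other tools for alignment and counting. A further 12 per-sample columns of normalized counts were not used. Samples were grouped by their titles.

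Genes with at least 0.5 CPM in at least 3 libraries (11626) were fitted with edgeR 4.0.16 in R 4.3.3, using TMM, 1 quasi-likelihood model over the 4 groups and Benjamini-Hochberg adjustment over all genes tested. SE is the log2 fold change divided by the square root of F. The common biological coefficient of variation was 5.35%. Ratios and shares were compared with two-sided exact permutation tests. The steps were tested on simulated counts with 200 changed genes. Replicate libraries differed beyond counting noise, since chi-square divided by the number of genes was 3.96 to 12.9.

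The members, gene lists, named-gene rule and motifs were chosen with earlier results of these data known. Named genes are the 10 members, list genes called with a log2 fold change of at least 1, and otherwise the 2 per list with the largest interaction at a mean of at least 1 CPM. Alternatives were RLE, library totals, upper quartile, DESeq2 1.42.0, limma 3.58.1 voom, other filters, a replicate block, no dispersion trend, 2-group fits, a stricter call and leaving out each library. Exchanging the treatment labels of the shAnxa2 line, and counting at the fold limits of the study's methods, were added after the data were seen. Protein sequences were not used here, nor were promoters of Tap2 and Nlrc5.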

Additional observations from a re-analysis of the deposited data

Results flagged for a closer look

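The OGD/R change differed between the lines for 8 of the 10 genes when the difference itself was tested as an interaction. The interaction was −1.76 for H2-T23, −1.32 for Tap1, −0.96 for H2-K1, −0.82 for Psmb9, −0.82 for B2m, −0.71 for H2-D1, −0.59 for Tapbp and −0.24 for Psmb8 on the log2 scale (edgeR adjusted p from 6.31e-13 to 0.0104). Over all genes tested, 35.1% were called lower and 34.9% higher. With the treatment labels of the shAnxa2 line exchanged, an alternative chosen after the data were seen, H2-K1 (−0.59), H2-D1 (−0.45), Tap1 (−0.44) and Tapbp (−0.34) were still lower, and H2-T23 (−0.18), B2m (−0.21), Psmb8 (−0.16) and Psmb9 (−0.37) no longer passed (edgeR adjusted p from 0.109 to 0.315), against 7.96% lower and 6.44% higher over all genes. B2m included 1 shCtrl untreated library of high level, without which its interaction was −1.04.

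For 3 further measures the OGD/R and untreated libraries did not overlap in either line, with opposite directions in the 2 lines. The difference between the lines was not tested. The OGD/R difference in shAnxa2 cells minus that in shCtrl cells was −1.08 for log2 Tap1 over Tap2, 0.73 for log2 Psmb10 over Psmb7 and −0.104 percentage points for the share of counts taken by the 10 genes. With the shAnxa2 treatment labels exchanged these values were −0.33, −0.0091 and −0.0456 percentage points. By the labels as given, the median interaction of the hypoxia targets was −1.59.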

How the results depend on the processing

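Under settings other than leaving out a library, 481 member log2 fold changes kept direction and side of the threshold, 7 gained a call and 2 lost one. With 1 library left out 584 kept both, 5 gained a call, 7 lost one and 4 changed sign. Over these settings the 98 and 120 counts of calls over all genes stayed within 1.5 times. The members lower in shAnxa2 cells after OGD/R fell from 5 to 2 at an adjusted p under 0.01 and ranged from 3 to 7 with 1 library left out, and the members higher ranged from 0 to 1. In that comparison the other changes were a lost call of B2m under DESeq2 (adjusted p = 0.0721) and of H2-D1 without a dispersion trend (0.0758), and gained calls of Tapbp with library totals, upper quartile or no filter and of Psmb9 with the latter 2. B2m between the untreated lines passed with no filter (0.14, adjusted p = 0.0235), and the Tap2 interaction under upper quartile (−0.31, 0.0452).

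Values near 0 changed sign with 1 library left out. Nlrc5 after OGD/R in shCtrl cells ranged from −0.038 to 0.098, H2-D1 between the lines after OGD/R from −0.086 to 0.017, and H2-K1 in that comparison from −0.0027 to 0.11. With the 100 most abundant genes left out of the denominator, the share of counts differed by 0.0954 percentage points for OGD/R in shCtrl cells, −0.0422 in shAnxa2 cells and 0.124 between the untreated lines, since the denominator is smaller. No ratio moved by more than 1 SD.

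Exchanging the treatment labels of the shAnxa2 line was tried after the data were seen, because the hypoxia targets went against them. All genes lower between the untreated lines went from 3455 to 2142. After OGD/R, the members higher in shAnxa2 went from 2 to 4 and those lower from 5 to 2, and all genes from 3925 to 2566 higher and from 3973 to 2560 lower. The interaction had 4 members lower in place of 8, with 749 genes higher and 925 lower in place of 4059 and 4077. The sign turned for B2m between the untreated lines (−0.17), for H2-T23 (0.26), H2-D1 (0.11) and Psmb9 (0.064) after OGD/R and for the Nlrc5 interaction (−0.16).

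Whether the replicate numbers pair the libraries was looked at without a test, and the correlations below cannot settle it. Deviations of same-numbered libraries correlated at −0.051 to 0.135 over 18 pairs, of which 1 was over 0.1, and those of other libraries at −0.099 to 0.082 over 36 pairs. Of 12 libraries, 6 correlated best with their own number. With the replicate block the calls of the 10 genes were the same in each comparison, and all genes gave 3754 higher and 3601 lower for OGD/R in shCtrl cells. Depth limits Tap2 and Psmb9 most, at 236 to 421 counts a library.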
